A study of Bos taurus with 134 samples.

Results

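The windows described here form the centromere-proximal stretch of the bovine autosomes. They lie on chromosomes 1 to 29, start within the first 3 Mb of their chromosome, and are at least 5 kb and less than 150 kb long. By this rule 1158 windows were selected out of 41322 in the methylation table, or out of 29849 autosomal windows of the same length range. Another 261 windows starting in the same stretches were shorter and 148 were longer, out of 1567 autosomal windows of any length that start there. The selected windows had a median length of 30287 bp and together spanned 49.6 Mb, including the parts of some windows that run past 3 Mb. Positions are those of the UMD3.1 assembly, in which position 1 of an autosome was taken as its centromeric end. How far the centromere itself lies from the first window was not analysed here.

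All bovine autosomes are acrocentric, so that the centromere sits near one end of the chromosome and nearly the whole sequence belongs to a single long arm. Next to a mammalian centromere lie arrays of satellite repeats, which are methylated to different degrees in germ cells and in somatic cells. Oocytes acquire most of their CpG methylation during growth, mainly over transcribed regions, and their genome therefore alternates between highly methylated stretches and stretches of low methylation.

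Single metaphase II oocytes were analysed by scBS-seq, in which bisulfite converts unmethylated cytosines and the percentage of methylated CpG calls is read per window in each oocyte. The question was how maturation in culture (IVM, n = 26) compares with maturation in the animal (IVO, n = 20). Both groups came from the same 4 wild-type Holstein heifers, aged 15 to 18 months. For IVM, follicles of 8 mm or less were aspirated after a GnRH injection, and the immature complexes were cultured for 22 h in TCM199 with gentamicin and epidermal growth factor. For IVO, heifers were synchronised with a progesterone device and prostaglandin, superovulated with 180 mg of FSH, and follicles of at least 8 mm were aspirated 24 h after GnRH. Maturation was judged by the polar body, and libraries whose X-linked CpG islands showed signs of somatic DNA had been removed by the study. No label names the heifer of an oocyte, so the oocytes of a group were treated as a single sample, SDs over oocytes are descriptions, and no test between groups was made. Such an SD describes the scatter of single oocytes, not the precision of a group mean. A difference smaller than it does not show that the groups are alike. All IVO libraries carry numbers 19 to 38, whereas IVM libraries carry 1 to 18 and 39 to 46, so that maturation and library number cannot be told apart. Follicle size, FSH treatment and the occasion of collection also differed between the groups. Only complexes with evident cumulus expansion entered the IVO group. In IVM minus IVO these cannot be told apart from culture either.

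Of the 1158 proximal windows, 1062 were covered by 5 or more IVM and 5 or more IVO oocytes, and these are the windows summarised from here on. An IVM oocyte had between 205 and 927 of them measured, with a median of 764.5, and an IVO oocyte between 159 and 921, with a median of 652. A proximal window was measured in 62.5% of IVM oocytes and 55.3% of IVO oocytes on average. Windows elsewhere on the same chromosomes, weighted to the same chromosomes and length classes, were measured in 61.4% and 55.1%. Both shares hold only for windows that passed the filter of 5 oocytes per group. Among these, proximal windows were covered about as often as windows of like length farther along the chromosomes. Of the 28691 other autosomal windows of the length range, 26550 passed the same filter. How many CpG calls stand behind a percentage is unknown, and no interval was computed for a single value.

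Proximal windows were methylated at an intermediate level in both groups. The mean level per oocyte ranged from 50.5% to 77.0% in IVM, with a median of 56.1%, and from 54.1% to 76.9% in IVO, with a median of 60.7%. IVM oocytes averaged 58.3% ± 7.18 (SD, n = 26), whereas IVO oocytes averaged 60.8% ± 5.40 (SD, n = 20). IVM minus IVO was therefore -2.50 percentage points, less than 1 SD of either group. It was -7.47 when each oocyte was given its median over windows. The SD of these medians was not computed, so -7.47 was not set against a spread. The ranges of the mean levels overlapped nearly completely between the groups. The difference was -2.38 with IVM libraries 1 to 18 and -2.78 with IVM libraries 39 to 46. Over the rest of the same chromosomes it was -2.62, so that the proximal windows differed between the groups by about as much as other windows did.

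Part of the spread between oocytes went with the number of windows measured in the whole table. Across the 26 IVM oocytes, the level of the proximal windows correlated with that number at a Pearson's r of -0.88 and Spearman's rho of -0.56, and across the 20 IVO oocytes at -0.72 and -0.69. Leaving out the 2 oocytes of most extreme coverage gave an r of -0.80 for IVM and -0.67 for IVO. Sparsely covered oocytes therefore showed higher levels in these windows, in both groups. The part of coverage in the difference between IVM and IVO was not tested, although with the 21 IVM and 15 IVO oocytes that had at least 15000 windows the difference was -3.12.

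To set the proximal windows against the rest of their chromosomes, each was compared, within the same oocyte, with the mean of the windows starting at or beyond 3 Mb on the same chromosome in the same of 5 length classes. This matched difference ranged from -5.79 to 1.60 percentage points over IVM oocytes, with a median of -1.65, and from -6.76 to 2.84 over IVO oocytes, with a median of -1.42. It was below 0 in 21 of 26 IVM and 17 of 20 IVO oocytes. The means were -1.74 ± 1.81 (SD) in IVM and -1.88 ± 2.35 (SD) in IVO, close to 1 SD from 0 or less. Matched by length over all autosomes they were -0.94 and -0.95, and averaged over the 1062 windows the matched difference was -0.57. The IVM and IVO means lay closer together than 1 SD over single oocytes, and the precision of these means was not estimated. The size depended on which windows entered, since without chromosome 14 the means were -0.73 in IVM and -0.64 in IVO, and with 10 or more oocytes per group they were -3.30 and -3.61. The direction depended on the boundary: with windows starting in the first 5 Mb the means were 0.82 in both groups, and with the first 1 Mb they were -4.58 in IVM and -5.23 in IVO. The matched difference was not related to coverage in the way the level was, with an r of 0.08 in IVM and 0.28 in IVO, although it became 0.45 in IVM when the same 2 oocytes were left out.

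This small mean hid a steep change with distance from the chromosome start. In steps of 500 kb, the 195 windows of the first 500 kb, on 27 chromosomes, had the lowest level relative to their matched windows of all 20 steps up to 10 Mb. They averaged 49.6% in IVM and 51.4% in IVO, a matched difference of -7.38 over windows. The next 5 steps up to 3 Mb lay between -1.43 and 4.19, and the steps from 3 to 10 Mb between -2.80 and 11.1. Averaged over windows, the proximal windows beyond the first 500 kb lay 0.97 percentage points above their matched windows, a sign that turned when oocytes were averaged. Levels elsewhere also swung by several points from step to step, with the highest value, 11.1, at 4 to 4.5 Mb. IVM was below IVO in every one of the 20 steps, with differences between -3.52 and -1.73 percentage points, and the first step, at -1.76, was among the smallest of them.

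Seen oocyte by oocyte, the low start of the chromosomes was shared by nearly all cells. The matched difference of the first 500 kb ranged from -19.7 to 6.03 over IVM oocytes, with a median of -7.61, and from -14.4 to -3.08 over IVO oocytes, with a median of -9.73. It was below 0 in 24 of 26 IVM and in 20 of 20 IVO oocytes. The means were -8.00 ± 5.52 (SD) in IVM and -8.83 ± 3.52 (SD) in IVO, and the groups overlapped throughout. Both IVM oocytes above 0 were among libraries 1 to 18, where the mean was -8.87 ± 6.19 (SD, n = 18), against -6.06 ± 3.09 (SD, n = 8) in libraries 39 to 46. Both of these oocytes were sparsely covered, with 8050 and 9330 windows in the whole table, against a median of 27420.5 in IVM. The IVM oocyte with the lowest value, -19.7, was also sparsely covered, with 11938 windows. For the proximal windows beyond 500 kb the means over oocytes were -0.19 ± 1.62 in IVM and -0.27 ± 2.49 in IVO, with 24 of all 46 oocytes above 0 and 22 below.

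Within the first 1 Mb, finer steps of 100 kb showed where the low levels lay. The 66 windows of the first 100 kb, on 23 chromosomes, had a matched difference of -9.89, with 45.9% in IVM and 47.6% in IVO. The following steps to 400 kb had -7.61, -4.28 and -12.8, the step from 400 to 500 kb had 0.06, and the step from 500 to 600 kb, with 23 windows, again had -7.49. Those 23 windows lay on 11 chromosomes, with 7 of them on chromosome 14, and without that chromosome, an alternative chosen after seeing the data, the step had -3.85. From 600 kb to 1 Mb all steps were between 0.73 and 3.66. The decline toward the chromosome start was uneven.

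The low first 500 kb was seen on most but not all chromosomes. Of 23 chromosomes with at least 3 measured windows there, 19 (82.6%) were below their matched windows, where 50.1% of 3052 other stretches of 500 kb on the autosomes were below. A matched difference of -10 or lower was found on 12 of the 23 chromosomes (52.2%), against 24.4% of the other stretches. The lowest values were -27.5 on chromosome 8, from 3 windows, -19.0 on chromosome 15, from 5 windows, and -17.0 on chromosome 7, also from 5. Chromosome 14, with 21 windows, had -16.6. The exceptions were chromosomes 1, 5, 26 and 25, which had 3.41, 5.98, 7.36 and 7.66. With each chromosome given the same weight, the IVM mean became -7.76 and the IVO mean -7.88, and without any single chromosome it stayed between -9.72 and -6.63 in IVM and between -9.98 and -6.84 in IVO.

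The selected window nearest to position 1 was taken on each chromosome. These 29 windows, all measured, started between positions 27 and 1320866, with a median of 5213. On some chromosomes a shorter or longer window lay nearer: the first window of any length started at 16658 on chromosome 12 and at 7946 on chromosome 23, the first selected one at 1320866 and 665803. Their level, taken as the mean of both group means, ranged from 23.4% to 88.5%, with a median of 44.6%. They averaged 49.0% ± 16.5 (SD over 29 windows) in IVM and 52.1% ± 20.0 in IVO, and 20 of them were below their matched windows and 9 above. How many of all windows lay below their matched windows was not counted, so nothing is read from these counts. The lowest was on chromosome 11 (chr11:5410-52602), with 28.0% in IVM and 18.7% in IVO, followed by those of chromosomes 6 and 16. The highest was on chromosome 21 (chr21:4659-49613), with 78.8% in IVM and 98.3% in IVO, and those of chromosomes 23 and 5 were also at or above 80%. By the mean of both groups, none of the 29 was below 20%.

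The opposite ends of the same chromosomes were lower still as a whole. Windows ending in the last 3 Mb that the table covers, 2794 of them measured, differed from matched windows outside these ends by -4.25 ± 2.29 (SD) in IVM and -3.64 ± 1.56 (SD) in IVO oocytes, and this difference lay below 0 in 44 of 46 oocytes. Their mean level per oocyte was 54.3% in IVM and 57.3% in IVO, against 58.3% and 60.8% at the proximal end. Over windows, and against the same reference without the last 3 Mb, which was chosen for these steps after seeing the data, the final 500 kb had -7.32 and the first 500 kb -7.64. Counted from the distal end, the next 2 steps had -2.46 and -1.12, and the steps from 1.5 to 3 Mb were low again, between -6.52 and -5.50, whereas at the proximal end the latter were between -2.17 and 0.57.

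In their distribution over levels, the proximal windows were rather like their matched counterparts. Of 1062 windows, 48 (4.52%) were below 20% by the mean of both groups, 761 (71.7%) between 20 and 80%, and 253 (23.8%) at 80% or more. Among the rest, weighted to the same chromosomes and lengths, the shares were 5.28%, 70.0% and 24.7%. Very low and very high windows were thus slightly fewer. In IVM 22.4% of proximal windows reached 80%, against 24.5% of the matched rest, and in IVO 25.5%, against 26.5%.

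The level was also compared by window length, without matching by chromosome. From the shortest class (5 to 10 kb) to the longest (80 to 150 kb), the mean level of the proximal windows went from 55.9% to 59.8%, while in the rest it went from 53.0% to 62.2%. The 113 shortest proximal windows thus lay above, and the 197 longest below, windows of the same length farther along. IVM was below IVO in each of the 5 classes, with differences from -1.04 in the shortest to -4.55 in the class of 10 to 20 kb. The 71 measured windows under 5 kb in the same stretches, which the rule leaves out, had 45.4% in IVM and 46.7% in IVO, and the 148 of 150 kb or more had 53.7% and 56.2%.

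Windows on both sides of each boundary of the rule were compared. Windows starting between 2.75 and 3 Mb, 95 of them measured, had 54.0% in IVM and 57.5% in IVO, and the 82 starting between 3 and 3.25 Mb had 54.9% and 57.2%. At the lower bound on length, 21 measured windows of 4 to 5 kb averaged 45.9% in IVM and 53.4% in IVO, and 30 windows of 5 to 6 kb averaged 51.2% and 51.1%, so that the difference between the groups was not the same on the 2 sides. At the upper bound, windows of 130 to 150 kb averaged 56.9% and 60.5%, and those of 150 to 170 kb 55.4% and 56.7%.

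Single proximal windows varied widely between oocytes. The median SD of a window was 28.8 percentage points over IVM oocytes and 31.3 over IVO oocytes, against 30.3 and 31.9 in the matched rest. Per oocyte, a mean of 31.3% ± 13.5 (SD, n = 26) of the proximal windows were at 100% and 11.8% ± 3.01 at 0% in IVM. In IVO these shares were 36.7% ± 10.3 and 13.8% ± 4.01 (SD, n = 20). IVO oocytes thus had more of both extremes, by less than the SD over oocytes for each. In IVM the share at 100% ran from 17.5% in an oocyte with 30962 windows in the whole table to 66.3% in one with 8549. In IVO it ran from 23.2% with 30471 windows to 64.8% with 6570. Mean coverage was 23955.3 windows in IVM and 21151.5 in IVO, and its part in these shares was not tested. How far few CpG calls per window contribute to such extremes was not tested, since the calls were not counted in the table.

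Adjacent proximal windows resembled each other. In 847 pairs of neighbours separated by less than 10 kb, the median absolute difference in level was 12.9 percentage points and the Pearson's r was 0.54, against 14.7 and 0.50 in 21302 such pairs of the rest. Their differences of IVM from IVO were only weakly related, with an r of 0.11 in the proximal pairs and 0.03 in the rest. These correlations are across windows, which share oocytes and are not independent replicates.

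Some runs of consecutive windows were high or low in both groups. On chromosome 20, 10 consecutive measured windows between 746546 and 1722714 were all at 80% or more in both groups, with means of 89.1% in IVM and 87.7% in IVO. On chromosome 7, 6 windows between 2591461 and 2785487 averaged 94.7% and 91.1%. For low runs the bound was 50%, which more windows meet than 80%, so the lengths of high and low runs are not compared. On chromosome 14, 13 windows from 386838 to 581546 were all below 50% in both groups, at 38.0% in IVM and 38.2% in IVO. There, 12 more from 608551 to 1086744 averaged 37.9% and 37.6%. On chromosome 24, 11 windows from 2127803 to 2585281 averaged 27.8% in IVM and 34.7% in IVO, and 10 windows from 2723510 to 2978773 averaged 17.6% and 25.8%. These runs were picked among the longest after their values were seen, by a rule that required both groups to be high or low.

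Between chromosomes the proximal windows differed far more than between IVM and IVO. By mean level over windows, chromosomes 8, 12 and 10 were highest, at 75.1%, 72.8% and 70.2%, and chromosomes 9, 19 and 24 lowest, at 42.5%, 45.7% and 46.1%. The number of measured windows was 40, 5 and 28 for the former and 7, 11 and 90 for the latter. Relative to matched windows of the same chromosome, chromosomes 8, 23 and 12 were highest, with 14.1, 13.6 and 12.9, and chromosomes 4, 19 and 22 lowest, with -15.3, -13.0 and -10.1. The sign was the same in IVM and IVO on 27 of 29 chromosomes, with 16 below and 13 above 0. Of 28 chromosomes with at least 5 measured windows, 6 (21.4%) were 10 points or more from their matched windows, and 22.3% of 741 other stretches of 3 Mb were as far. The SD over chromosomes, 8.04, was also close to the SD of 8.29 over these stretches, so that the first 3 Mb varied between chromosomes as any other 3 Mb did.

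Chromosome 8 had the highest proximal level by the mean over windows. By the mean over oocytes chromosome 12 was higher in IVM, at 76.1% against 74.4%, and chromosome 6 in IVO, at 76.6% against 73.9%. On chromosome 8 the level per oocyte ranged from 62.8% to 88.9% in IVM, with a median of 73.5%, and from 60.9% to 86.5% in IVO, with a median of 75.7%. Its matched difference was above 0 in 24 of 26 IVM and 17 of 20 IVO oocytes. Of its 40 windows, 20 were at 80% or more and none below 20%. Yet its first 500 kb, from 3 windows, was at 33.8% in IVM and 42.4% in IVO, and the step from 1 to 1.5 Mb, with 12 windows, was at 82.4% and 82.3%. The groups overlapped, and their difference of 0.52 percentage points was far below the spread.

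Chromosome 4 was the lowest relative to the rest of its length, with 45.0% in IVM and 47.7% in IVO. Its 10 windows lay between 34.2% and 56.1%, a narrow range, and 8 of them started in the first 500 kb. Chromosome 19 was similar, with 11 windows between 32.9% and 64.0%, of which 8 started in the first 500 kb. The 2 windows of chromosome 4 beyond 500 kb had matched differences of -13.2 and -18.9, against -15.0 over those of its first 500 kb. Chromosome 22, at 60.2%, was low only beside its own rest, which averaged 67.2%. Against windows of the same length on all autosomes its difference was 0.44.

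The number of proximal windows itself was uneven, from 5 on chromosomes 6 and 12 to 140 on chromosome 25, 116 on chromosome 14 and 102 on chromosome 24. On chromosome 25 the measured windows had a median length of 16284 bp and on chromosome 14 of 19515 bp, against 113602 bp on chromosome 12. Chromosomes 14, 24 and 25 together weigh heavily in any mean over windows.

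By means over windows, IVM was below IVO on 21 of 29 chromosomes (72.4%) and above it on 8, where 82.3% of the other stretches of 3 Mb had IVM below IVO. The differences ranged from -8.09 on chromosome 24 to 7.03 on chromosome 17, the latter from 7 windows. Over chromosomes their SD was 3.09 percentage points, and over the other stretches it was 3.03. Chromosome 25 had -5.71, chromosome 27 -5.39 and chromosome 13 -5.01, whereas chromosomes 10 and 21 had 2.38 and 2.37. Averaged over oocytes, chromosome 10 had -0.15 and chromosome 21 had 5.43, and the largest rise was 8.41 on chromosome 15, which had 0.57 over windows. Chromosome 23 turned from -1.89 over windows to 3.49 over oocytes. The other stretches ranged from -20.8 to 13.6, and 13 of the 741 (1.75%) were below chromosome 24, which was picked as the lowest of 29, and 9.85% below chromosome 25.

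Chromosome 24 had the largest fall by the mean over windows. By the mean over oocytes chromosome 6, with 4 measured windows, fell further, at -9.87. On chromosome 24 the level ranged over IVM oocytes from 29.7% to 86.5%, with a median of 40.7%, and over IVO oocytes from 40.8% to 83.4%, with a median of 52.1%. The means were 46.9% ± 15.5 (SD, n = 26) and 56.5% ± 12.4 (SD, n = 20), a difference of -9.65. It is smaller than either SD, which describes single oocytes and not the precision of a mean. Of the 26 IVM oocytes, 14 lay below the lowest IVO oocyte, 8 of them among the 18 of libraries 1 to 18 and 6 among the 8 of libraries 39 to 46, while the upper ends of the groups overlapped. Relative to matched windows of chromosome 24 the means were -10.1 ± 8.48 in IVM and -4.30 ± 6.89 in IVO, and their difference of -5.80 was smaller than both SDs.

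Coverage moved strongly with the level on chromosome 24, with an r of -0.91 in IVM and -0.79 in IVO between the level and the number of windows measured (-0.85 and -0.67 without the 2 oocytes of most extreme coverage). The matched difference of this stretch also went with coverage, with an r of -0.79 in IVM and -0.53 in IVO (-0.69 and -0.63 without the same 2). The groups differed in coverage as well, with a median of 27420.5 windows in IVM and 23134.5 in IVO, and its part in the fall was not tested. Among the oocytes with at least 15000 windows, a limit applied here after the data were seen, the 21 IVM oocytes ranged from 29.7% to 53.4%, with a median of 40.4%, and the 15 IVO oocytes from 40.8% to 69.2%, with a median of 49.8%. Their means, 40.2% ± 5.92 (SD) and 50.9% ± 7.94 (SD), were farther apart than the SD of either group. Well-covered oocytes of both kinds still overlapped between 40.8% and 53.4%.

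Within the stretch of chromosome 24, 64 of the 90 measured windows (71.1%) were lower in IVM, against 56.9% of all measured proximal windows. Each of its 6 steps of 500 kb was also lower, as were all 20 steps over the autosomes, with differences on chromosome 24 from -10.5 in the first to -6.24 in the second. With IVM libraries 1 to 18 the difference per oocyte was -8.12 and with libraries 39 to 46 it was -13.1. By means over windows, the difference was -8.09 in this stretch and -2.20 over the rest of chromosome 24. In level the stretch fell from 54.1% in IVM and 61.1% in IVO at 1 to 1.5 Mb to 32.1% and 38.7% at 1.5 to 2 Mb, and it stayed at 42.7% or less in both groups to 3 Mb.

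On chromosome 25, with 119 measured windows, the difference was uneven. The first 500 kb had 70.2% in IVM and 64.8% in IVO, so that IVM was higher by 5.38, whereas all 5 later steps had IVM lower, with the largest difference, -13.4, at 2.5 to 3 Mb. Of the windows, 78 (65.5%) were lower in IVM, against 56.9% of all measured proximal windows. By 20 points or more, 22 (18.5%) fell and 6 (5.04%) rose, where 8.63% and 4.19% of all measured autosomal windows did. The windows of chromosome 25 were short, with a median of 16284 bp, and shorter windows were measured in fewer oocytes. These background shares are not matched by length, and the part of length was not tested.

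Of the 1062 proximal windows, 41 (3.86%) were higher in IVM by at least 20 percentage points, where 4.19% of all 27612 measured autosomal windows of the length range were. In the other direction, 91 (8.57%) were lower in IVM by as much, against 8.63% of all windows. Both shares at the chromosome starts were thus close to those of all autosomal windows. With a bound of 30 points, 7 windows (0.659%) were higher, against a background of 0.996%, and 26 (2.45%) lower, against 2.32%. Among the 644 windows with 10 or more oocytes in each group, 11 (1.71%) were higher by 20 points, against 2.35% of all such windows, and 34 (5.28%) lower, against 6.36%. With IVM libraries 1 to 18 alone, 53 (5.16%) were higher, against 5.08%, and 98 (9.53%) lower, against 9.4%. By group medians, 80 (7.53%) were higher, against 8.02%, and 154 (14.5%) lower, against 15.5%. Of the 91 lower windows, chromosome 25 held 22 (18.5% of its measured windows), chromosome 24 held 12 (13.3%), chromosome 14 held 8 (7.77%) and chromosome 16 held 7 (10.3%). Chromosomes 2, 8, 10 and 21, with 28 to 40 measured windows each, held none.

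Named windows were taken from the 644 proximal windows with 10 or more IVM and 10 or more IVO values. The highest were chr21:2810869-2870919, chr8:2410056-2461620 and chr7:1610295-1658539. In chr21:2810869-2870919 the values ran from 91.4% to 100% in 13 IVM oocytes and from 92.9% to 100% in 11 IVO oocytes, with a median of 100% in both. In chr8:2410056-2461620 they ran from 83.3% to 100% in both groups, and 22 of 23 IVM and 13 of 15 IVO oocytes were at 100%. In chr7:1610295-1658539 the lowest IVM value was 66.7% and the lowest IVO value 87.5%, again with a median of 100%. These windows were fully methylated in most oocytes, whichever way the oocytes matured.

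The lowest were chr25:1464820-1480468, chr24:2957358-2978773 and chr2:2026341-2146238. In chr25:1464820-1480468 the median was 0% in both groups, with values up to 100% in 1 of 18 IVM oocytes and up to 50% in 13 IVO oocytes. In chr24:2957358-2978773 the IVM values ran from 0% to 66.7%, with a median of 9.52%, and the IVO values from 0% to 50%, with a median of 0%. The long window chr2:2026341-2146238 was measured in all 46 oocytes, from 0% to 57.5% in IVM, with a median of 21.7%, and from 0% to 28.6% in IVO, with a median of 6.27%. Its means, 20.0% ± 18.1 (SD, n = 26) and 10.0% ± 10.6 (SD, n = 20), put IVM above IVO, against the general direction, by less than the SD of IVM.

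The rises and falls named next had to have the same sign in IVM libraries 1 to 18 and 39 to 46, a rule met by 395 of the 644 windows, 150 of them higher and 245 lower in IVM. Both differences are taken from the same IVO oocytes, so nothing is read from these counts. Of the 395, chr25:215036-259425 was highest in IVM relative to IVO. Its values ran from 0% to 100% in both groups, with a median of 100% in IVM and 50.8% in IVO, and means of 85.9% ± 27.3 (SD, n = 22) and 51.2% ± 44.4 (SD, n = 11). In chr7:1439949-1503928 the 16 IVM oocytes lay between 64.3% and 100%, whereas the 15 IVO oocytes ran from 0% to 100%, with medians of 100% and 85.7%. The IVM oocytes were all high in this window, while 3 IVO oocytes were at 0%.

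The remaining rises lay in windows of different levels. In chr11:601397-641266 the IVM values ran from 33.3% to 100%, with a median of 100%, and the IVO values from 0% to 100%, with a median of 89.7%, so that the means were 91.0% and 64.9%. In chr10:162488-201963 the medians were 50% and 10%, with values from 0% to 100% in both groups. In chr28:365114-421273 the IVM values ran from 0% to 100%, with a median of 24.2%, and the IVO values from 0% to 33.3%, with a median of 0%. In each of these windows the groups overlapped, and they differed in the share of oocytes at the extremes.

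The largest fall was in chr1:2466560-2509832. Its values ran from 0% to 100% in both groups, with a median of 13.8% in 12 IVM oocytes and 92.9% in 10 IVO oocytes, and means of 32.6% ± 40.1 and 71.1% ± 39.1 (SD). The fall was -58.1 with IVM libraries 1 to 18 and -11.1 with libraries 39 to 46, so that its size rested mostly on the former. The window holds MIS18A, whose product takes part in loading the centromeric histone variant onto centromeres.

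Next came chr25:1976904-2003614, which holds NTN3, a netrin gene. Its values ran from 0% to 100% in IVM, with a median of 60%, and from 8.33% to 100% in IVO, with a median of 97.2%, and the means were 49.5% ± 41.6 (SD, n = 11) and 83.6% ± 29.0 (SD, n = 10). In chr27:271878-289776 the values ran from 0% to 100% in IVM, with a median of 50%, and from 5.56% to 100% in IVO, with a median of 100%. There 10 of 15 IVO oocytes were at 100%, but only 5 of 17 IVM oocytes. The differences were -30.8 with IVM libraries 1 to 18 and -29.5 with libraries 39 to 46. Both are taken from the same IVO oocytes, and the window was chosen for 1 sign in both, so nothing is read from their likeness.

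The other falls occurred in windows of lower methylation. In chr28:1917031-1964932 the IVM values ran from 0% to 60%, with a median of 26.8%, and the IVO values from 0% to 100%, with a median of 36.7%. In chr5:477108-532991 they ran from 0% to 72.7%, with a median of 25%, and from 0% to 100%, with a median of 50%. No IVM oocyte was at 100% in either window, whereas 4 IVO oocytes were in each. All of the 10 windows named for a rise or a fall overlapped between the groups. Over all 1062 measured proximal windows the differences ran from -52.7 to 45.3. The windows at these ends did not meet the rule for named windows, and their overlap was not examined.

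Gene names could be given only where a position of the same assembly was listed in the study's supplementary tables, which were read in part. Such positions placed 62 genes in 50 proximal windows, of which 47 were measured. The level of these windows ranged from 19.0% to 86.4%, with a median of 55.2%, and IVM was lower in 34 and higher in 13, where it was lower in 604 of all 1062 measured proximal windows (56.9%). Many of these positions come from a list of gene bodies that the study ordered by the difference between the same oocytes, so the direction is no independent evidence. None of 20 imprinted genes that were looked up lay in a proximal window by these positions.

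Promoters, which the tables list by position, lay in 16 measured windows of chromosomes 1 to 5. Another measured window, on chromosome 6, with 65.6% in IVM and 65.7% in IVO, was left out of the comparison. These averaged 51.5% ± 13.3 (SD over 16 windows) in IVM and 54.8% ± 13.7 in IVO, and the other 99 measured proximal windows of these chromosomes 56.0% ± 23.4 and 58.2% ± 23.8. Relative to matched windows the means were -5.57 and -0.55. The windows with a listed promoter were longer, with a median of 76614.5 bp against 48929 bp, and the SDs are not matched by length. The list is also partial.

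Some gene-bearing windows, picked after their values were seen, show the range. The window chr1:1585378-1635060 holds the start of IL10RB and that of IFNAR2, which encode cytokine receptor subunits, and had 17.1% in IVM and 27.6% in IVO. The window chr25:2227697-2249270, with PRSS21, a serine protease gene known for its expression in testis, had 17.4% and 20.5%. At the upper end, chr20:1365704-1424385, with SPDL1, whose product acts at the kinetochore, had 90.9% and 81.8%. BTG2, an antiproliferative gene, lies in chr16:889199-917748, which had 35.7% and 23.1%.

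On chromosome 1, the step from 1.5 to 2 Mb, which includes the cytokine receptor genes, averaged 33.3% in IVM and 32.8% in IVO over 11 windows, a matched difference of -25.2. The steps on either side were at 60.1% and 65.6%, and at 57.3% and 68.5%. The window of OLIG1, a transcription factor gene of the nervous system, lies in the same step at chr1:1777088-1811333, with 65.1% in IVM and 42.2% in IVO. The low step was thus shared by IVM and IVO, and single windows within it went either way.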

How the data were processed

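The authors trimmed the scBS-seq reads with Trim Galore 0.4.4, aligned them with Bismark 0.18.2 to UMD3.1 by the labels (UMD3.1.1 in the study's text), removed duplicates and quantified windows in SeqMonk. They deposited the percent of methylated CpG calls per window and oocyte, without the number of calls. The table's name gives 20 CpGs per window, but the study's text describes tiles of 100 CpGs. Windows had values from 5 or more IVM and 5 or more IVO oocytes. Matched differences used length classes bounded at 5, 10, 20, 40, 80 and 150 kb and at least 3 other windows. Named windows were, among those with 10 or more values per group, the 3 highest, the 3 lowest, and the 5 largest rises and 5 largest falls with the same sign in both ranges of IVM library numbers; chromosomes were the 3 highest and 3 lowest. Any pair of oocytes had identical values in at most 60.9% of shared windows, and in at most 31.7% without values of 0 and 100. The members and lists were chosen with earlier results of these data known. Supplementary tables, held in part, gave gene positions only, and the expression table was not used. The code was tested on simulated data. Alternatives covered the filter on oocytes, library numbers, averaging, boundary, matching and single chromosomes. Python 3.11.15, numpy 2.4.6 and pandas 2.3.3 were used.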

Additional observations from a re-analysis of the deposited data

How the results depend on the processing

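No paired analysis was possible because no label names the heifer of an oocyte and the results come from no test. Of 238 alternative values, 224 moved by less than 1 SD over oocytes, or for counts by less than 1.5 times, and 14 moved further. This SD is that of single oocytes, so large shifts of a mean can stay below it. Most of the 238 left out a single chromosome and kept the other windows, so that a large shift was unlikely from the outset. For the first 500 kb, leaving out chromosome 12 or 23 changed nothing, since neither had a measured window there. The 224 include IVM minus IVO at -7.47 with the median over windows. They also include the matched difference in IVM at -0.73 without chromosome 14 and at -3.30 with 10 or more oocytes per group. The difference of IVM from IVO was below 0 under all 39 alternatives run for it, from -7.47 with the median over windows to -1.93 without chromosome 24. The level in IVO was 67.7% with the median over windows, and the matched difference in IVM was then -3.85; the cause was not tested. With windows starting in the first 1 Mb the matched difference was -4.58 in IVM and -5.23 in IVO, and with the first 5 Mb it was 0.82 in both, where the boundary itself sets which windows enter. Windows higher in IVM numbered 7 at 30 points, 11 with at least 10 oocytes of each group and 80 by group medians, and windows lower in IVM numbered 26, 34 and 154. With bounds of 25 and 75%, 79 windows fell in the lowest class. Chosen after seeing the data, the alternatives for the first 500 kb gave IVM values from -10.5 to -6.36 and IVO values from -10.9 to -6.84, and those for chromosome 24 gave -10.9 to -7.91. Settings by library number also selected the windows anew. With the windows kept, IVM libraries 39 to 46 gave -6.06 for the first 500 kb and -13.1 for chromosome 24, both outside these ranges. Matching chromosome 22 by length over all autosomes, also chosen after seeing the data, gave 0.44 in place of -10.1, since the rest of that chromosome is highly methylated. The unknown number of calls limits the precision of each value, and sparsely covered oocytes have higher levels.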
